A study of Arabidopsis thaliana with 12 samples.

Results

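PSB27 (AT1G03600) and LPA19 (AT1G05385) encode the Psb27-type proteins of Arabidopsis thaliana, small soluble proteins of the thylakoid lumen that act in the building of photosystem II. The members were found by gene name: of 3439 rows on the array, 692 had exactly 1 gene in the platform annotation, and 1 of these rows stood for PSB27 and 1 for LPA19, so both members were measured by a single row each. The arrays held total RNA of plants of the Columbia 0 ecotype, 6 titled wild type and 6 titled stn7stn8, the double mutant without the thylakoid protein kinases STN7 and STN8. The titles alone give this grouping, because the source field reads wild type for every sample. The labels name no mutant alleles, organ, age, light regime or treatment. Nor do they say whether replicates came from separate plants, so a p-value measures array-to-array spread that may be purely technical.

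Photosystem II is built stepwise in the thylakoid membrane, and it is taken apart and rebuilt when light damages its D1 reaction centre protein. In cyanobacteria, Psb27 sits on the lumenal side of assembly intermediates, bound to the inner antenna protein CP43, and leaves before the oxygen-evolving complex is complete. In Arabidopsis, PSB27 is known for the recovery of photosystem II after photoinhibition, and LPA19 for the processing of the C-terminal end of the D1 precursor. STN8 phosphorylates mainly core proteins of photosystem II, among them D1 and CP43, and STN7 mainly its mobile light-harvesting antenna.

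Some properties of the arrays bear on every value below. Mutant replicates 4 and 5 agreed to within 4.0e-10 in every row and were counted as 1 sample, written 4/5 here, which left 6 wild-type and 5 mutant arrays. Deposited intensities summed to 3586 to 3682 per array, but their log2 medians lay between -1.65 and -1.36 in wild type and between -1.003 and -0.944 in the mutant. The median log2 difference between mutant and wild type over all tested rows was therefore 0.50 on the deposited values. After quantile normalization it was 0.058, so a change on the normalized scale is relative to the other rows. Both members were above 0 in every array and were tested with the other rows that had 4 or more values in each group, 3229 in all. The wild-type arrays resembled each other in pairs with consecutive numbers, which the labels do not explain. The targeted kinases could not be checked, since 0 of 6 genes of the thylakoid phosphorylation list, STN7 and STN8 included, had a row with 1 gene name. Non-green tissue could not be checked either, with 0 of 3 markers measured.

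The design asks how transcript levels differ between plants with and without both kinases. PSB27 was lower in the mutant whichever scaling between arrays was used. LPA19 was also lower relative to the other rows, but its deposited intensity had the same mean in both groups. At an adjusted p under 0.05 both members were called lower, where 19.6% of all tested rows were called lower and 43.3% were called in either direction. The share called lower was 8.7% on the deposited values and 26.6% after centring on array medians. With so many rows called, a call for each of 2 genes does not set them apart.

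For PSB27, the deposited intensities of wild-type replicates 1 to 6 were 2.41, 2.48, 2.01, 2.01, 1.57 and 1.51, in arbitrary linear units. Its intensities in mutant replicates 1, 2, 3, 4/5 and 6 were 1.49, 1.51, 1.299, 1.28 and 1.599. Wild-type replicates 1 to 4 lay above every mutant array, while replicates 5 and 6 lay below mutant replicate 6, so the groups overlapped on this scale. Wild type averaged 1.999 ± 0.405 (SD, n = 6), the mutant averaged 1.43 ± 0.14 (n = 5), and their ratio was 0.717. After quantile normalization the log2 intensity of PSB27 was 1.01 ± 0.27 in wild type and 0.43 ± 0.15 in the mutant. The groups then did not overlap, with a wild-type minimum of 0.66 and a mutant maximum of 0.60. Such a separation was found in 28.9% of tested rows. The log2 fold change was -0.58 ± 0.13 (SE, 95% interval -0.88 to -0.29, limma adjusted p = 0.00463). On the quantile-normalized scale PSB27 thus stood at 0.668 of the wild-type level. Measured against the median row, by centring on array medians, it stood at 0.50.

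For LPA19, the deposited intensities of wild-type replicates 1 to 6 were 0.447, 0.462, 0.519, 0.548, 0.739 and 0.661. Its intensities in mutant replicates 1, 2, 3, 4/5 and 6 were 0.502, 0.586, 0.578, 0.583 and 0.564. The mutant arrays lay within the wild-type range, and the means were 0.563 ± 0.12 (SD, n = 6) and 0.563 ± 0.035 (n = 5). After quantile normalization the log2 intensity of LPA19 was -0.67 ± 0.31 in wild type and -1.11 ± 0.11 in the mutant. On that scale all 5 mutant arrays lay below all 6 wild-type arrays, the mutant maximum being -1.01 and the wild-type minimum -0.95. Groups that did not overlap, in either direction, were found in 28.9% of tested rows. The log2 fold change was -0.44 ± 0.14 (SE, 95% interval -0.75 to -0.13, limma adjusted p = 0.0247), a level of 0.737 of wild type. This call was less firm than that of PSB27: it was lost without mutant replicate 1, at -0.40 (limma adjusted p = 0.0564), and with consecutive wild-type arrays averaged (limma adjusted p = 0.0608).

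**Figure D1:**
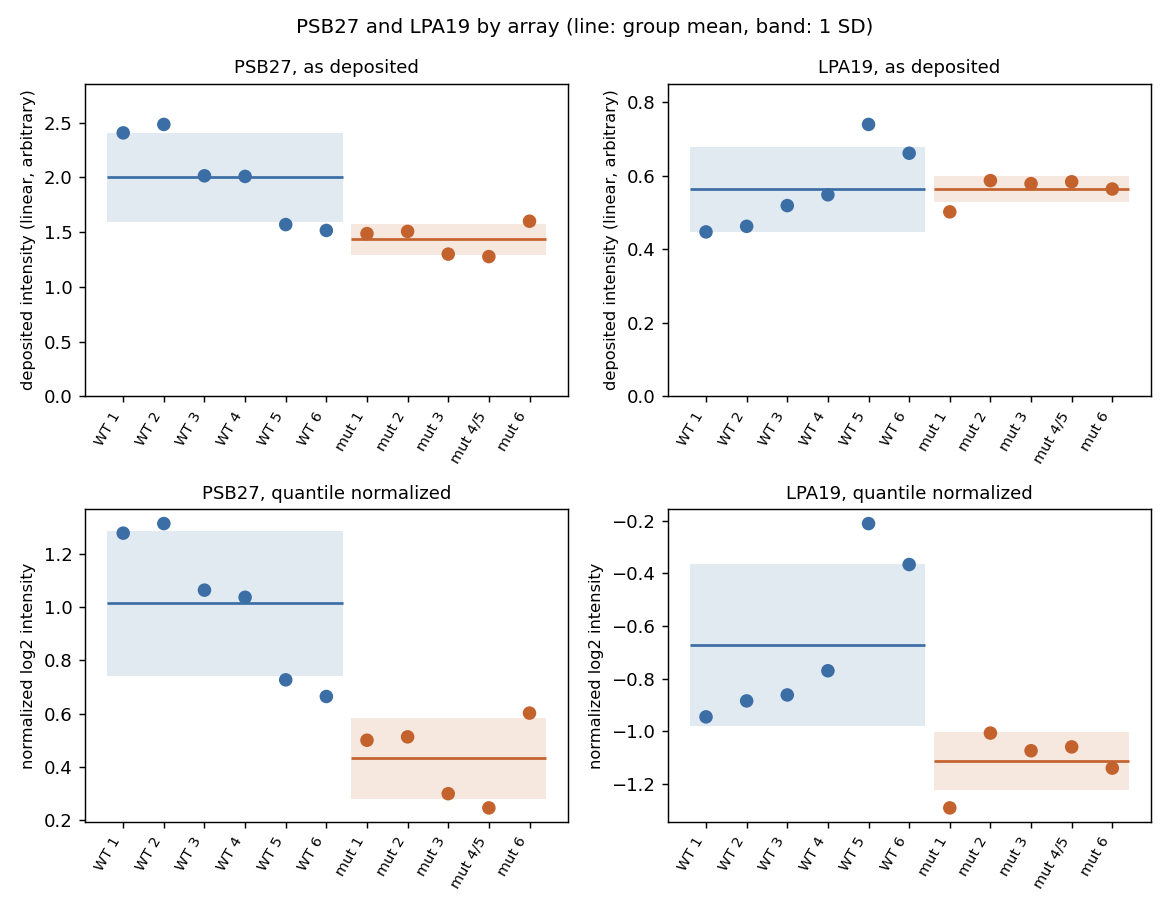
Intensity of PSB27 (left) and LPA19 (right) in each array, as deposited on a linear axis (top) and as normalized log2 values (bottom), with wild type (WT) in blue and stn7stn8 (mut) in orange. Points are arrays, lines are group means and bands are 1 SD. The LPA19 means are equal at 0.563 as deposited, and on the normalized scale both rows show all mutant arrays below all wild-type arrays. On that scale the groups did not overlap, in either direction, in 28.9% of tested rows.

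The place of each member in the brightness order of its array does not depend on any constant scaling. PSB27 was a bright row, brighter than or equal to 89.8% to 93.8% of the rows above 0 in the wild-type arrays and 85.4% to 89.2% in the mutant arrays. LPA19 stood lower in the order than PSB27, at 59.7% to 78.5% in wild type and 49.0% to 57.9% in the mutant. Neither member's ranges overlapped between the groups. On the quantile-normalized values such a separation was found in 28.9% of tested rows. These ranks carry the same information as the quantile-normalized values and also move when many other rows change.

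The choice of scaling moved the estimates of both members, but it changed the call of LPA19 alone. PSB27 had a log2 fold change of -0.46 without scaling, -0.999 after centring on array medians and -0.54 after cyclic loess (limma adjusted p = 0.0146, 1.1e-04 and 0.0106). It was called lower under each of these. LPA19 had 0.022 without scaling, -0.52 after centring on array medians and -0.46 after cyclic loess (limma adjusted p = 0.894, 0.0234 and 0.0306). No decrease of LPA19 was therefore seen on the deposited scale, where the interval of its log2 fold change ran from -0.27 to 0.32.

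**Figure D2:**
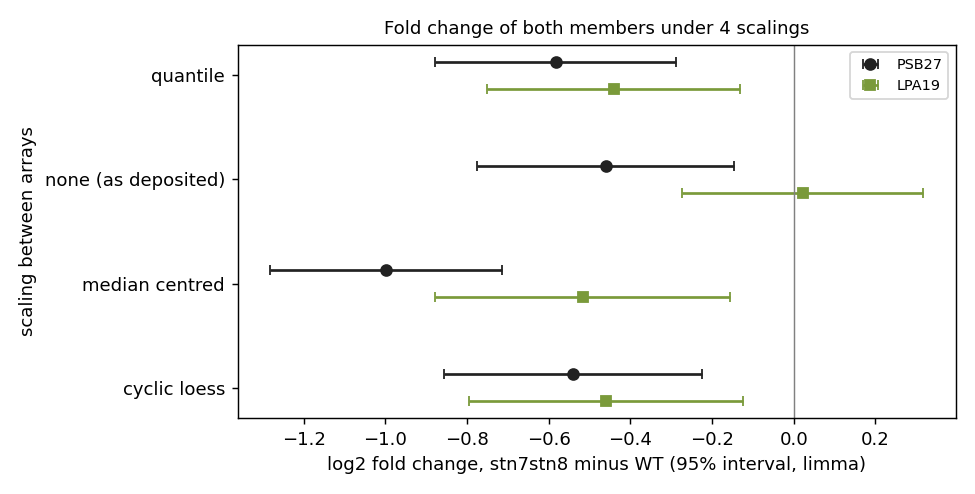
Log2 fold change of PSB27 (circles) and LPA19 (squares) in stn7stn8 against WT, with 95% intervals from limma, under quantile normalization, no scaling, centring on array medians and cyclic loess. PSB27 lies below 0 in every case, from -0.999 to -0.46, while the deposited LPA19 value of 0.022 has an interval that spans 0.

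Whether the members changed unequally was asked from the difference between the log2 values of PSB27 and LPA19 within each array. This difference compares a pair of rows of unknown probe efficiency, so its size has no meaning as a ratio of transcripts, and its change between groups is what can be read. On the deposited values it was 2.43, 2.43, 1.96, 1.87, 1.09 and 1.197 in wild-type replicates 1 to 6. In mutant replicates 1, 2, 3, 4/5 and 6 it was 1.57, 1.36, 1.17, 1.13 and 1.51. Wild-type replicates 1 to 4 lay above all mutant arrays, and replicates 5 and 6 lay within or below the mutant range. The group means were 1.83 ± 0.58 (SD, n = 6) and 1.35 ± 0.20 (n = 5), a change of -0.48 that did not pass an exact two-sided permutation test over the 462 splits of 11 arrays (p = 0.121). On the quantile-normalized values the change was -0.14 (exact permutation p = 0.597, also after Benjamini-Hochberg adjustment over the 3 within-array comparisons computed). An unequal change of PSB27 and LPA19 was therefore not detected with these arrays, which does not show that they changed alike. Without wild-type replicates 5 and 6 the normalized change was -0.48 (exact permutation p = 0.0159), and without replicates 1 and 2 it was 0.11 (exact permutation p = 0.643). The sign and the size thus rest on which wild-type pair is present. These omissions were chosen after seeing the data. Replicates 5 and 6 had the smallest differences in wild type, so leaving them out had to enlarge the change, and nothing is read from that p-value.

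**Figure D3:**
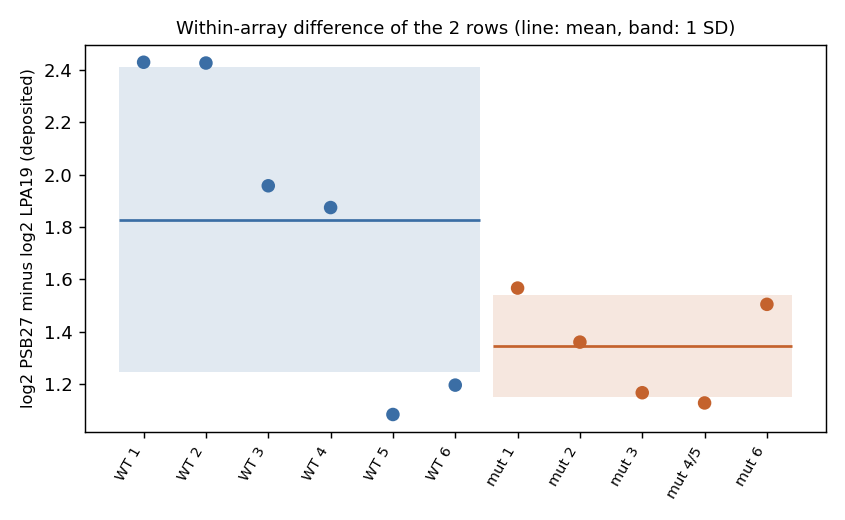
Difference between log2 PSB27 and log2 LPA19 (deposited values) within each array, with wild type (WT) in blue, stn7stn8 (mut) in orange, group means as lines and 1 SD as bands. Wild type runs from 1.09 to 2.43 and spans the whole mutant range of 1.13 to 1.57.

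The spread of PSB27 in wild type lay between pairs of arrays with consecutive numbers rather than within them, and that of LPA19 mainly between replicates 5 and 6 and the other 4 arrays. Normalized log2 PSB27 averaged 1.296 in replicates 1 and 2, 1.05 in 3 and 4 and 0.70 in 5 and 6, while arrays of a pair differed by at most 0.063. LPA19 ran the other way, with averages of -0.91, -0.82 and -0.29 and a largest difference within a pair of 0.16. The pair of replicates 5 and 6 thus had the lowest PSB27 and the highest LPA19 of the wild-type arrays. The range of the pair averages was 0.60 for PSB27 and 0.63 for LPA19, about as large as the fold changes between the genotypes, against a median of 0.37 over the 3192 rows with all wild-type values. PSB27 was among the 15.9% of those rows in which each difference within a pair was smaller than each difference between pairs, and LPA19 was not. Set against the mutant mean, PSB27 was higher by 0.86, 0.62 and 0.26 in the wild-type pairs, and LPA19 by 0.20, 0.30 and 0.83. All of these normalized differences had the same sign, and their sizes ran in opposite order for the members. On the deposited values PSB27 remained higher than the mutant mean in each pair, by 0.78, 0.49 and 0.11, while LPA19 differed by -0.31, -0.076 and 0.32. Among mutant arrays both genes were steadier: the SD of PSB27 was 0.15 and that of LPA19 0.11, against a median SD of 0.21 over all rows. What sets the wild-type pairs apart was not tested, and averaging them left PSB27 lower (limma adjusted p = 0.0228). With consecutive mutant arrays averaged as well, 3 with 4/5, PSB27 no longer passed, at -0.55 (limma adjusted p = 0.0619). With 4/5 averaged with 6 instead, a grouping chosen after seeing the data, PSB27 was at -0.60 and just passed (limma adjusted p = 0.0469). Mutant arrays 1 and 2 were the least alike of the mutant arrays (r = 0.916 across rows). Array 4/5 had an r of 0.949 with 3 and 0.97 with 6.

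Few other genes of photosystem II assembly could be set beside the members. Of 33 genes in a list of assembly and repair factors, 3 had a row with 1 gene name and were tested. The 2 called lower on the normalized scale were the members themselves, where 19.6% of all tested rows were called lower. The list thus adds AT1G54500 alone, which did not pass, at 0.17 on the log2 scale (limma adjusted p = 0.368). The list's median log2 fold change, which is the value of LPA19 itself, was -0.44 against 0.058 over all tested rows, and 0.022 against 0.50 on the deposited values. On the deposited values AT1G54500 was at 0.52 and was called higher (limma adjusted p = 0.00267), a value close to the median of all rows there. By size of decrease PSB27 ranked at position 66 of 645 tested rows with 1 gene name, 104 of which were called lower.

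Of 13 nuclear genes for subunits of photosystem II itself 2 were measured, of which 1 rose and 1 did not pass, where 43.3% of all rows were called. PSBY, a small membrane subunit, rose, each of the 5 mutant arrays exceeding every wild-type array, with normalized log2 values of 0.57 to 1.12 in wild type and 1.69 to 2.17 in the mutant. Groups did not overlap in 28.9% of tested rows. After centring on array medians PSBY was at 0.52 (limma adjusted p = 0.0059), and 4 of 5 mutant arrays exceeded every wild-type array. Within an array, log2 PSB27 minus log2 PSBY went from 0.16 ± 0.32 in wild type to -1.51 ± 0.23 in the mutant (SD, n = 6 and 5, normalized values). That the members of this pair moved apart was known when it was chosen, so no test is given. PSBW, a low-molecular-mass subunit and one of the brightest rows, had -0.33 (limma adjusted p = 0.0685) and was called lower under each of the other 3 scalings. LHB1B2, 1 of 14 antenna genes on the list and the one that was measured, had 0.26 (limma adjusted p = 0.118). Its row may detect near-identical LHCB1 copies, and its call depended on the scaling. LHB1B2 was called lower at -0.47 after centring on array medians (limma adjusted p = 0.0268) and higher at 0.36 after cyclic loess (limma adjusted p = 0.0327).

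Other genes for proteins of the thylakoid lumen, the compartment in which both members work, moved in both directions. Of 23 genes on that list 4 were measured, 1 higher, 2 lower and 1 not called, with a median log2 fold change of -0.29, where 43.3% of all rows were called and 19.6% were called lower. PSAN, a lumenal subunit of photosystem I, had -0.69 (limma adjusted p = 0.0248), and 4 of 5 mutant arrays lay below every wild-type array. AT1G76450 had -1.18 (limma adjusted p = 0.0216). Its row was dim, at or below 13.2% in the brightness order of every array but wild-type replicate 4, and on the deposited values it was at -0.56 and not called. AT1G74070 rose by 0.74 (limma adjusted p = 2.0e-04) and was higher in each mutant array than in any wild-type array, where 28.9% of tested rows had groups without overlap. AT5G35100 had 0.12 (limma adjusted p = 0.229). The deposited values gave AT1G74070 1.14 and AT5G35100 0.52, and both were called higher there. After centring on array medians, AT5G35100 turned to -0.020.

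**Figure D4:**
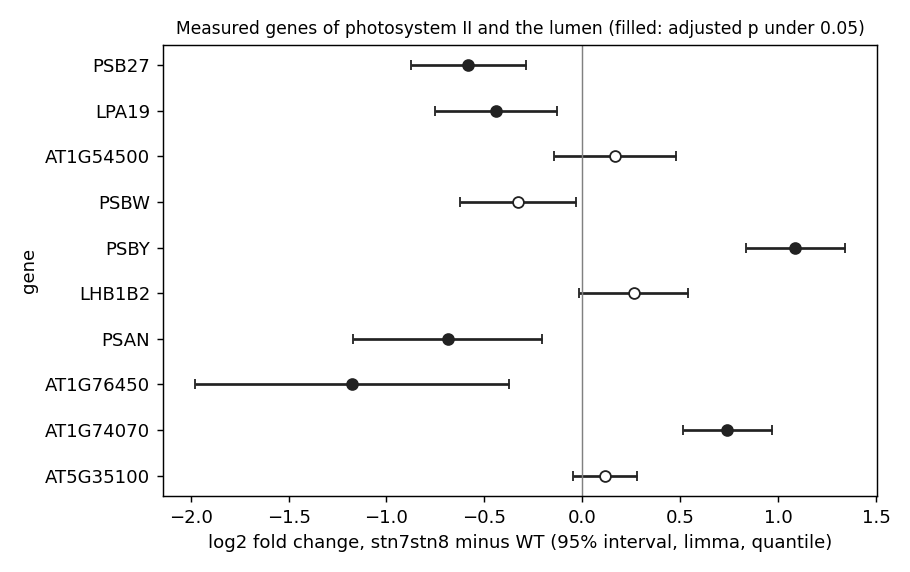
Log2 fold change (stn7stn8 minus WT, quantile-normalized, limma) with 95% intervals for the members and for the measured genes of the photosystem II and lumen lists. Filled points passed an adjusted p under 0.05. PSB27 at -0.58 and LPA19 at -0.44 lie below 0, as do PSAN at -0.69, AT1G76450 at -1.18 and PSBW at -0.33. Above 0 lie PSBY at 1.09, AT1G74070 at 0.74, LHB1B2 at 0.26, AT1G54500 at 0.17 and AT5G35100 at 0.12.

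The genes whose normalized log2 values over the 11 arrays were most like each member were taken from 626 other rows with 1 gene name and a value in every array. For PSB27 they were AT4G20760, AT2G25870, AT1G30700, AT2G04790 and AT1G78620, with Pearson r from 0.916 to 0.946. For LPA19 they were AT3G54930, AT1G11800, AT2G15440, AT4G37230 and AT4G25290, with r from 0.917 to 0.944. The groups of 5 shared 0 genes. In the mutant all 5 genes like PSB27 were called lower, and of those like LPA19 all but AT4G25290, where 19.6% of all rows were. The genes were picked over the arrays that hold the genotype difference, so nothing is read from these calls. On the deposited values AT1G11800 was the one of these 10 genes still called lower, at -0.40 (limma adjusted p = 0.0286). The arrays share their genotype and the wild-type pairs, and the genes were picked for a high r. What such r arise from was not tested. After each group's mean was subtracted, r was 0.775 to 0.891 for the first group and 0.827 to 0.904 for the second. On deposited log2 values r fell to between 0.606 and 0.888 and to between 0.643 and 0.834. PSB27 and LPA19 themselves had an r of 0.24 over the same 11 arrays.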

How the data were processed

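The deposited table holds 1 linear intensity per row and array. How the authors scaled it, subtracted background or scanned the arrays is stated in neither labels nor file. It carries no detection flags. The unit was read from the values, and per the labels the samples are total RNA. Zeros were treated as missing, mutant replicates 4 and 5 were averaged, and log2 intensities were quantile normalized and fitted with limma 3.58.1 (lmFit, eBayes, two-sided) in R 4.3.3. Rows needed 4 values per group. P-values were adjusted by Benjamini-Hochberg over 3229 rows, threshold 0.05. The fit was tested on simulated data. Within-array differences were tested by exact permutation of arrays. Gene names came from the platform annotation matched to TAIR10.1, and no gene was read from rows with several genes (870). Those rows stayed in the normalization and, where they had enough values, in the fit and the shares over all tested rows. Named are the members, every measured gene of the fixed lists and the 5 rows most like each member. The members and lists were chosen with earlier results of these data known. The number of arrays limits the precision. Alternatives changed scaling, zeros, filters, variance model, pairing, averaging and arrays used.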

Additional observations from a re-analysis of the deposited data

Results flagged for a closer look

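Values of the named genes formed 40 groups, and in 1 of them a single array stood far apart, while about 1 in 20 would do so by chance. This was AT1G76450 of the lumen list, at -1.463 (normalized log2) in wild-type replicate 4 and between -3.24 and -2.69 in the remaining wild-type arrays. No array of PSB27 or LPA19 was set apart in this way.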

How the results depend on the processing

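PSB27 kept its call and direction in 32 of 33 alternatives and LPA19 in 26 of 33. PSB27 lost its call with consecutive arrays of both groups averaged, mutant 3 with 4/5 (-0.55, limma adjusted p = 0.0619). LPA19 lost it in that fit (-0.45), with 4/5 averaged with 6 (-0.43), with wild-type pairs averaged (-0.44), with consecutive arrays as a random block, 4/5 with 6 (-0.44), at a threshold of 0.01 (-0.44), and without mutant replicate 1. On the deposited values LPA19 was at 0.022 and was not called. Leaving out single arrays gave -0.64 to -0.52 for PSB27 and -0.49 to -0.34 for LPA19. The within-array change ranged from -0.29 to -0.036 without single arrays, turned to 0.11 without wild-type replicates 1 and 2, and passed at -0.48 without 5 and 6. The 1398 rows called (766 higher, 632 lower) became 2095 on the deposited values (1814 and 281), and 1491 after centring on array medians (631 and 860). They became 885 and 804 with consecutive arrays averaged in both groups, where fewer samples enter, and 278 among rows with 1 gene name alone, where fewer rows are tested. Other causes were not tested. Averages in the mutant with 4/5 beside 6, the omitted wild-type pairs and the second numbering below were chosen after seeing the data.

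Same-numbered arrays of the groups deviated together with r of 0.118 to 0.203 across rows, except for 4/5 numbered as 4, where r was 0.0067. Numbered as 5, its r was 0.112, and mutant arrays 1, 2, 3 and 6 resembled the wild-type array of their own number most. The titles do not state whether the numbers pair the arrays, nor which number 4/5 should carry. With a replicate block PSB27 was at -0.64 and LPA19 at -0.35 (limma adjusted p = 0.0110 and 0.0466), and 1425 rows were called. With the array numbered 5 they were at -0.58 and -0.46 (limma adjusted p = 0.0148 and 0.0353). With 4/5 numbered as 4, the within-array change within same-numbered pairs was -0.29 (exact permutation p = 0.375, 32 sign changes). So few sign changes cannot give a p under 0.05, and nothing is read from this test.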
